A study of Rattus norvegicus with 8 samples.

Results

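The proteasome is the barrel-shaped protease that degrades ubiquitin-tagged proteins in every cell, and its genes were followed in the distal colon mucosa of rats fed quercetin, a plant flavonol. Genes were taken by symbol, as those that begin with Psma, Psmb, Psmc, Psmd, Psme, Psmf or Psmg followed by a digit and that had a probe set carrying no other symbol. The rule found 46 of 14217 genes, on 60 probe sets. Psmc3ip, a recombination factor, and Psme3ip1 match it by their letters only and are kept apart, which leaves 44 proteasome genes. All 46 were bright enough to be tested. Psmb6 and Psme3 share each of their probe sets with other genes, so neither they nor the tissue-restricted forms Psma8 and Psmb11 are analysed here.

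The quercetin group (4 arrays) had received 10 g of quercetin per kg of diet for 11 weeks, and the control group (4 arrays) a rat breeder diet over the same 11 weeks. The sources used here give no strain, sex or age. Total RNA came from mucosa scraped off the rinsed distal colon, a mixture of epithelium and the cells beneath it, so a change in the number of cells of a type and a change in RNA per cell cannot be told apart. Whether every array came from its own animal is not said in the labels, so a p-value covers the spread between arrays, which may be technical.

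The arrays' mean correlations with each other were 0.927 to 0.955. Control array 2 had the lowest, and its GAPDH signal ratio of 3' to 5' probes, which rises with RNA damage, was 3.79, against 1.91 to 2.36 on the quercetin arrays and 1.58 to 2.15 on the other control arrays. The same ratio for actin was 7.18, 8.90, 9.12 and 6.79 on the quercetin arrays, against 8.65, 21.4, 10.2 and 12.4 on the control arrays. By the actin ratio, control arrays 2, 3 and 4 thus lay above every quercetin array. A fit with the GAPDH ratio as a covariate is among the alternative fits at the end, and none used the actin ratio. Beyond that fit, the part of RNA quality in the results below was not tested. Absorptive cell and goblet cell markers were bright throughout: Car1 lay at 14963 to 21317 on the quercetin arrays and 11193 to 21758 on the control arrays, and Muc2 at 19258 to 25637 and 20771 to 39228.

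A proteasome consists of a core particle, built of stacked rings of alpha and beta subunits, and of caps that bind to its ends. Protein is cut inside the core by a small set of catalytic beta subunits, while the regulatory cap recognises ubiquitin, removes it, and unfolds and feeds in the substrate with a ring of ATPases. Under interferon, and constantly in leukocytes, the inducible subunits encoded by Psmb8, Psmb9 and Psmb10 replace the constitutive catalytic subunits, and the resulting immunoproteasome favours peptides suited to MHC class I. Intestinal epithelial cells carry both forms.

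None of the 44 genes passed limma's adjusted threshold of 0.05, which 2 of 18625 probe sets passed (0.0107%), or 1 of 10266 genes at 1 probe set per gene (0.00974%). Of the 44, 8 had an unadjusted p under 0.05, which is 18.2%. That share was 10.8% of all tested probe sets, 9.39% at 1 probe set per gene, and 12.9% of the 7007 tested probe sets with a mean log2 signal of at least 8. Of the 8 genes, 7 had higher signals in quercetin (Psmb9, Psmb3, Psmd2, Psmc3, Psmf1, Psmb8 and Psmd7) and Psmd11 had lower ones. The shares were 5.04% higher and 5.71% lower among all tested probe sets, and 6.06% and 3.33% at 1 probe set per gene. Without control array 1 the count was 5, without quercetin array 2 it was 3, without quercetin array 4 it was 3, and without both control arrays 1 and 2 it was 3.

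In the count of directions, 32 genes had a log2 fold change above 0 and 12 below, with a median of 0.07, where all tested probe sets had a median of 0.01. The share above 0 was 72.7% of the 44, against 51.3% of all tested probe sets and 55.9% at 1 probe set per gene. That lean rested on quercetin array 1, without which 22 were above 0 and 22 below and the median was 0.01. Without control array 2 the split was 26 against 18 and the median 0.01. The median was 0.11 without control array 1 and 0.13 without quercetin array 3. A log2 fold change here is on the scale of log2(signal + 16), quercetin over control. The quartiles of the 44 values were -0.01 and 0.25, against -0.19 and 0.20 for all tested probe sets and -0.13 and 0.17 for those with a mean log2 signal of at least 8.

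**Figure D1:**
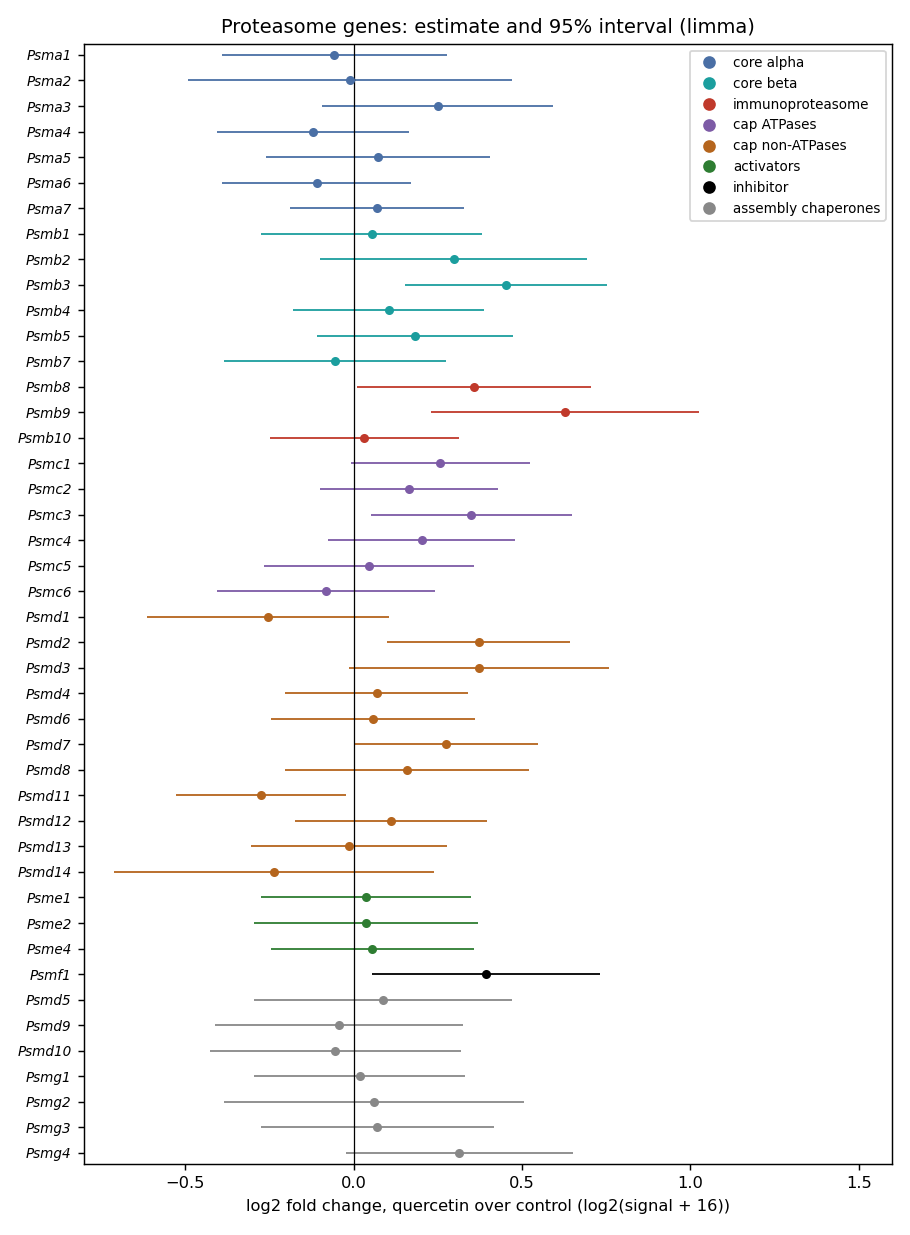
Log2 fold change (horizontal axis, quercetin over control, on log2(signal + 16)) of the 44 proteasome genes, ordered by role, with 95% intervals from limma. Most intervals span 0, and the highest estimate is that of Psmb9 at 0.63.

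**Figure D2:**
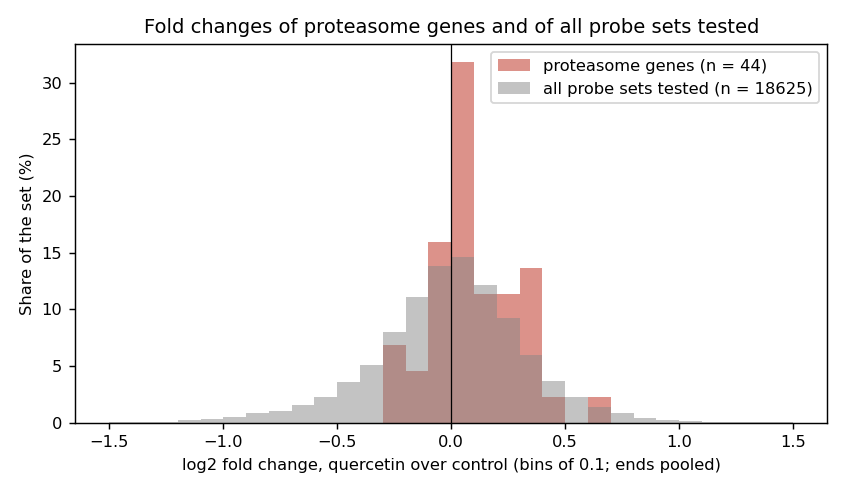
Share of genes or probe sets (vertical axis, %) by log2 fold change (horizontal axis, bins of 0.1) for 44 proteasome genes and 18625 probe sets tested. The values of the proteasome genes run from -0.28 to 0.63.

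The immunoproteasome subunits had a group median of 0.36, which is the value of Psmb8. All 3 were above 0, as were 51.3% of all tested probe sets and 55.9% at 1 probe set per gene. Psmb10, at 0.03, turned below 0 in 2 of 20 alternative fits. Of the 3 subunits, 2 had an unadjusted p under 0.05 and 0 passed limma's adjusted threshold. An unadjusted p under 0.05 was found for 10.8% of all tested probe sets and 9.39% at 1 probe set per gene. Psmb9 encodes the inducible subunit known as LMP2, and its signals were 946, 925, 618 and 765 on the quercetin arrays, against 514, 402, 686 and 490 on the control arrays. Quercetin arrays 1, 2 and 4 lay above every control array, while quercetin array 3 lay below control array 3. Psmb9 averaged 814 ± 153 in quercetin and 523 ± 119 in control (SD, n = 4 each), a log2 fold change of 0.63 (SE 0.184, limma adjusted p = 0.285) or 1.55-fold.

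Psmb8 encodes LMP7, which takes the place of the chymotrypsin-like subunit encoded by Psmb5. Its signals were 522, 548, 365 and 432 on the quercetin arrays, against 341, 415, 339 and 336 on the control arrays. The groups overlapped only through control array 2, which stood above quercetin array 3. Psmb8 averaged 467 ± 84.3 in quercetin and 358 ± 38.4 in control (SD, n = 4 each), with a log2 fold change of 0.36 (SE 0.161, limma adjusted p = 0.450).

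Psmb10 encodes MECL-1, the third inducible subunit. Its signals were 695, 619, 590 and 579 on the quercetin arrays and 655, 596, 623 and 552 on the control arrays. The groups lay within the same range, with a log2 fold change of 0.03 and a 95% interval of -0.25 to 0.31. Without control arrays 1 and 2, the values of Psmb9, Psmb8 and Psmb10 were 0.46, 0.43 and 0.08.

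**Figure D3:**
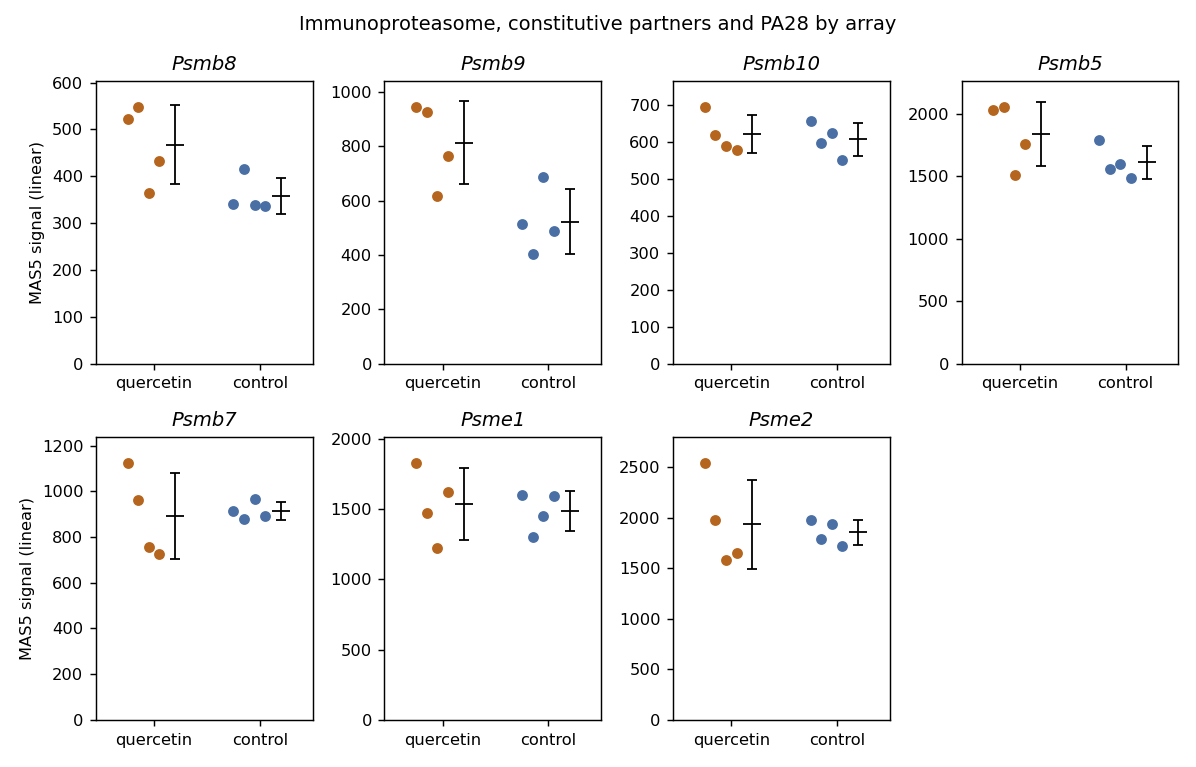
MAS5 signal (vertical axis, linear, from 0) of the 3 immunoproteasome genes, 2 constitutive partners and 2 PA28 genes on each quercetin and control array (points), with mean and SD (bars, n = 4 each). Psmb9 and Psmb8 lie higher in quercetin with some overlap, and Psmb10, Psmb7, Psme1 and Psme2 lie in the same range in both groups.

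Promoter sequences are shown for these 3 subunits, which interferon is known to induce, and for Psmb3, the core gene with the largest value. They are RefSeq windows of the GRCr8 assembly, 250 bases before to 50 after the start, 5′ to 3′ along the gene. Psmb8 lies at chr20:4656982-4657281 (minus strand) and Psmb9 at chr20:4668750-4669049 (plus strand). Psmb10 lies at chr19:50743243-50743542 (minus strand) and Psmb3 at chr10:83193537-83193836 (plus strand). Capitals mark matches on either strand to the interferon-stimulated response element (ISRE, GAAA and again GAAA with 2 bases of any kind between them), the antioxidant response element (ARE, TGACNNNGC), the CCAAT box (CCAAT) and the GC box (GGGCGG).
Psmb8: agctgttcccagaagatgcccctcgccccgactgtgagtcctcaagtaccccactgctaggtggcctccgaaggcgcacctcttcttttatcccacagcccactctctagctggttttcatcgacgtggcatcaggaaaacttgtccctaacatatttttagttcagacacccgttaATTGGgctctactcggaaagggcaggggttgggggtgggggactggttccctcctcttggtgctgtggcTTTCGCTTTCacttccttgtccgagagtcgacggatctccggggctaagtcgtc
Psmb9: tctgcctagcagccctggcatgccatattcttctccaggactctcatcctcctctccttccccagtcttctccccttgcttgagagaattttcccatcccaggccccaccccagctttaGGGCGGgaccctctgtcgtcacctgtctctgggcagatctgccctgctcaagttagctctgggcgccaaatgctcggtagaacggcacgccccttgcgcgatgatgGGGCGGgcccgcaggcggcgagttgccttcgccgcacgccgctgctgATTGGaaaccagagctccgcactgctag
Psmb10: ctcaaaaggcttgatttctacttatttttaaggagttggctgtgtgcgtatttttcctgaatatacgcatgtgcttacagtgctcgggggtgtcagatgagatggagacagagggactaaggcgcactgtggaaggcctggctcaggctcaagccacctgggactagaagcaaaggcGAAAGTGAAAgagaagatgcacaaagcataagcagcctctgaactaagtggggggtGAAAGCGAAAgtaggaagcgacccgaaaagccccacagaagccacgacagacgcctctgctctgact
Psmb3: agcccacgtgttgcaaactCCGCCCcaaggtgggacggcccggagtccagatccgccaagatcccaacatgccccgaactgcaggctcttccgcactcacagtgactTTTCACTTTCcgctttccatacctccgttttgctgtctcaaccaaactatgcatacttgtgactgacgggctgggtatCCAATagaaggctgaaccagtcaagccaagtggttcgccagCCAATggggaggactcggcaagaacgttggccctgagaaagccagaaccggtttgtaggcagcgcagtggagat

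Psmb10 had 2 ISRE matches, Psmb8 and Psmb3 had 1 each, and the Psmb9 window had none. In the genome Tap2, Psmb8, Tap1 and Psmb9 follow each other. Tap1 and Psmb9 point away from each other from starts 457 bases apart, and the Tap1 window held 1 ISRE match at its base 130. A window was found for 40 of the 44 genes. An ISRE match stood in 7 of them (17.5%), those of Psma4, Psmb3, Psmb8, Psmb10, Psmd7, Psme2 and Psmg4, and in 3.79% of 27457 promoter windows. An ARE match was in 17.5% (Psma3, Psmb2, Psmb5, Psmd1, Psmd3, Psmd9 and Psme4) and in 12.2% of all windows. CCAAT boxes were in 50% of the proteasome windows and 37.7% of all, and GC boxes in 70% and 34.7%. In 2 places matches of different motifs overlapped. A match describes letters, not binding, and no match says only that these letters are not in the window.

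Of the constitutive catalytic subunits, Psmb5 and Psmb7 could be measured. Psmb5, the chymotrypsin-like subunit, had signals of 2033, 2055, 1509 and 1759 on the quercetin arrays, against 1792, 1559, 1600 and 1489 on the control arrays. Quercetin arrays 1 and 2 were above every control array and the other quercetin arrays were not, with a log2 fold change of 0.18 (95% interval -0.11 to 0.47). Psmb7, the trypsin-like subunit that Psmb10 replaces, had 1124, 960, 758 and 724 on the quercetin arrays, against 913, 878, 968 and 893 on the control arrays. Its quercetin arrays lay to both sides of the control range, with a log2 fold change of -0.06 (95% interval -0.38 to 0.27).

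Within each array, the log2 signal of an inducible subunit minus that of its constitutive partner shows whether the pair changed unequally. The difference of Psmb8 minus Psmb5 was 0.17 higher in quercetin (SD between arrays 0.0574 in quercetin and 0.197 in control, n = 4 each). An exact permutation test, two-sided, gave p = 0.171 (adjusted over 2 pairs, 0.343), where the smallest p it allows is 0.0286. The groups overlapped only through control array 2, which at -1.87 lay above every quercetin array. Control arrays 1, 3 and 4 lay below every quercetin array. With 1 array left out, this difference ran from 0.10 (without control array 1) to 0.26 (without control array 2). In the latter case the same test gave an adjusted p of 0.0571, which is also above the threshold. For Psmb10 minus Psmb7 the difference was 0.09 (SD 0.185 in quercetin and 0.0912 in control, n = 4 each, exact permutation p = 0.429, adjusted 0.429). Neither difference passed the threshold.

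Immunoproteasome genes share their induction by interferon with the genes that load peptides on MHC class I. A list of 19 genes held class I and loading genes, the chaperone genes Pdia3, Calr and Canx, and regulators such as Irf1, Stat2 and Nlrc5. Not all of them load peptides. Of the 19, 15 were measured, 10 had values above 0 and 5 below, with a median of 0.13. In this list 4 had an unadjusted p under 0.05, all above 0, and 0 passed limma's adjusted threshold. Such higher values at an unadjusted p under 0.05 made up 5.04% of all tested probe sets and 6.06% at 1 probe set per gene. The values of those 4 were 0.73 for Pdia3, a chaperone of the loading complex, 0.54 for Tapbp, which encodes tapasin, 0.99 for Tap2, a chain of the peptide transporter, and 0.32 for the transcription factor Irf8. Tap2 was dim, with signals of 85.3 to 100 on the quercetin arrays, against 49.6, 11.3, 27.8 and 94.1 on control arrays 1 to 4. Its groups overlapped through control array 4, and control array 2 was the lowest.

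Tap1, the gene next to Psmb9, had signals of 161, 167, 221 and 129 on the quercetin arrays, against 122, 110, 112 and 148 on the control arrays. Only control array 4 reached into the quercetin range, and the log2 fold change was 0.40 (SE 0.194, limma adjusted p = 0.488). Tap1 was chosen as the neighbour of Psmb9 after its values were seen, as were the following genes. B2m, the light chain of MHC class I, had a value of -0.13. The interferon-induced factors Irf1, Irf9 and Stat2 had values of 0.12, 0.14 and 0.13, and Nlrc5, an activator of class I genes, -0.45.

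Leukocytes, which are known to carry immunoproteasome, were followed by their markers. The 4 general leukocyte markers (Ptprc, Coro1a, Laptm5 and Cd53) were all above 0, with a median log2 fold change of 0.58. Their summed signal was 216 to 451 on the quercetin arrays and 114 to 182 on the control arrays, without overlap. Taken singly, only Coro1a had no overlap (90.4 to 157 against 2.56 to 68.6), while Ptprc, Laptm5 and Cd53 overlapped. The split in the sum rested on Coro1a, without which the sums of the diets overlapped. On quercetin array 1, Ptprc, Laptm5 and Cd53 were at 25.2, 32.1 and 58.2, against 55.9, 47.8 and 36.0 on control array 3. Among all tested probe sets 3.09% were higher in quercetin without overlap. None of the 4 passed limma's adjusted threshold (lowest adjusted p = 0.320). On quercetin arrays 1 to 4 the median deviation of the markers was 0.02, 0.98, 0.30 and -0.13. That of the immunoproteasome was 0.35, 0.42, -0.05 and 0.09, in another order of arrays. Control arrays 1 to 4 had -0.11, -0.06, -0.03 and -0.69 for the markers. For the immunoproteasome they had -0.24, -0.04, 0.02 and -0.26, in the same order of arrays. Coro1a had a value of 1.31 and Cd53 one of 0.84, while Ptprc, the pan-leukocyte marker, had 0.19. All of these are dim, with single signals down to 2.56, and none of the markers was at 0.

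Markers of single lineages were mostly too dim to be tested. Of the 9 T cell markers measured, 3 were bright enough to test, all above 0 (Lck 0.28, Cd3g 0.18 and Cd247 0.11), and the sum of the 9 was 486 to 806 on the quercetin arrays and 371 to 739 on the control arrays. The largest part of each sum was Cd3g, at 194 to 552 and 163 to 449. For B and plasma cells 1 of 5 could be tested, Jchain at -0.15, and the sums were 128 to 201 and 57.9 to 134. Among 10 macrophage and dendritic cell markers 5 could be tested, with 4 above 0 and 1 below and a median of 0.04. These ran from -0.39 for Aif1 to 0.67 for Csf1r, with Lyz2 at 0.57. The sums of the 10 were 2499 to 2758 on the quercetin arrays and 1503 to 3743 on the control arrays. Most of each sum was Cd14, at 1906 to 2382 and 1121 to 3323. The part of leukocytes in the immunoproteasome values was not tested.

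The sums of other cell types overlapped between the diets. For absorptive cells these were 59777 to 65102 on the quercetin arrays and 53245 to 72975 on the control arrays. The 8 markers had 5 values above 0 and 3 below, with a median of 0.07. They ran from -0.19 for Slc26a3 to 0.72 for Slc9a3, a sodium-proton exchanger. For goblet cells the sums were 54501 to 68336 and 56042 to 71785. The 6 goblet cell markers had 3 values above 0 and 3 below, with a median of -0.04, from -0.21 for Muc2 to 1.37 for Spink4. For smooth muscle, of which 4 of 8 markers could be tested, the sums were 1478 to 1897 and 1512 to 3177. Most of each sum was Mylk, at 1086 to 1534 and 1219 to 2693. The tested markers had 2 values above 0 and 2 below, from -0.42 for Mylk to 0.11 for Des.

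In the core particle, the 7 alpha subunits, which form the outer rings and gate the channel, had 3 values above 0 and 4 below, with a median of -0.01. With 1 array left out that median ran from -0.18 (without quercetin array 1) to 0.06 (without control array 1), so its sign was not settled. They ran from -0.12 for Psma4 to 0.25 for Psma3, and none had an unadjusted p under 0.05. Psma6 had signals of 6069, 5194, 4666 and 4268 on the quercetin arrays, against 5411, 5494, 5625 and 5098 on the control arrays. The control arrays lay close together and the quercetin arrays spread to both sides, with a log2 fold change of -0.11. Psma4 had 1185, 1073, 1002 and 908 on the quercetin arrays, against 1114, 1257, 1163 and 1000 on the control arrays. The groups overlapped over most of their ranges, and the value was -0.12 (SE 0.132).

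Of the 6 constitutive beta subunits measured, 5 had values above 0, with a median of 0.14, and 1, Psmb3, had an unadjusted p under 0.05. The median was 0.07 without control array 2 and 0.09 without quercetin array 1. Psmb3, a structural and non-catalytic beta subunit, had signals of 1589, 1707, 1596 and 1718 on the quercetin arrays, against 1404, 941, 1274 and 1244 on the control arrays. Every quercetin array lay above every control array, and the quercetin arrays were close together. Psmb3 averaged 1653 ± 69.3 in quercetin and 1216 ± 196 in control (SD, n = 4 each), with a log2 fold change of 0.45 (SE 0.139, limma adjusted p = 0.301). Without control array 2 the value was 0.34. Psmb2, another structural subunit, followed at 0.30 (limma adjusted p = 0.599), with overlapping groups.

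The regulatory cap showed values on both sides. All 6 ATPases, which unfold the substrate, were measured, and 5 had values above 0, with a median of 0.18 and a range from -0.08 for Psmc6 to 0.35 for Psmc3. Without control array 2 that median was 0.12. Psmc3 had signals of 899, 1030, 923 and 1109 on the quercetin arrays, against 740, 654, 875 and 834 on the control arrays. The groups did not overlap, and the log2 fold change was 0.35 (SE 0.138, limma adjusted p = 0.390), or 0.20 without control arrays 1 and 2. A dimmer probe set of Psmc6 had -0.35 (SE 0.146), against -0.08 on the one that stood for the gene.

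The 11 non-ATPase cap subunits, which form the scaffold and the ubiquitin receptors, had 7 values above 0 and 4 below, with a median of 0.07, or 0.01 without control array 2 and 0.11 without quercetin array 2. Psmd2, a large scaffold subunit, had signals of 1078, 1209, 1106 and 1206 on the quercetin arrays, against 790, 835, 949 and 976 on the control arrays. Again the groups did not overlap, with means of 1150 ± 67.8 in quercetin and 888 ± 89.2 in control (SD, n = 4 each) and a log2 fold change of 0.37 (SE 0.126, limma adjusted p = 0.340). Psmd3, a further scaffold subunit, had the highest value of the group, 0.37, with overlapping groups.

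Psmd11, which helps to join cap and core, had lower signals in quercetin. They were 1881, 1756, 1700 and 1654 on the quercetin arrays, against 2203, 2276, 2103 and 1904 on the control arrays, without overlap. Its log2 fold change was -0.28 (SE 0.117, limma adjusted p = 0.427). A dimmer probe set of Psmd11 had 0.31 (SE 0.160), so these probe sets of the gene disagreed in sign. Another probe set, with mean signals of 13.2 in quercetin and 17.1 in control, was too dim to be tested. With all 3 averaged, the value was -0.08.

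Psmd1, the other large scaffold subunit, had 517, 355, 433 and 367 on the quercetin arrays, against 398, 526, 499 and 579 on the control arrays. The groups overlapped through quercetin array 1 and control array 1, with a value of -0.25 (SE 0.166). Psmd14, the enzyme that cuts ubiquitin chains from the substrate, had 1188, 723, 647 and 956 on the quercetin arrays, against 1288, 679, 1137 and 1043 on the control arrays. Its value was -0.24 (SE 0.220), and its other probe sets had 0.31 and -0.16.

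Across core, cap, activators, inhibitor and chaperones, 6 of the 44 genes had groups that did not overlap, 5 higher and 1 lower. Among all tested probe sets 6.39% had no overlap (3.09% higher and 3.3% lower), and 5.84% at 1 probe set per gene (3.77% and 2.07%). Besides Psmb3, Psmc3, Psmd2 and Psmd11 these were the ATPase gene Psmc1 (0.26) and the cap subunit gene Psmd7 (0.27), both named after their values were seen. Psmd7 had an unadjusted p of 0.0494, and its other probe set had 0.28.

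**Figure D4:**
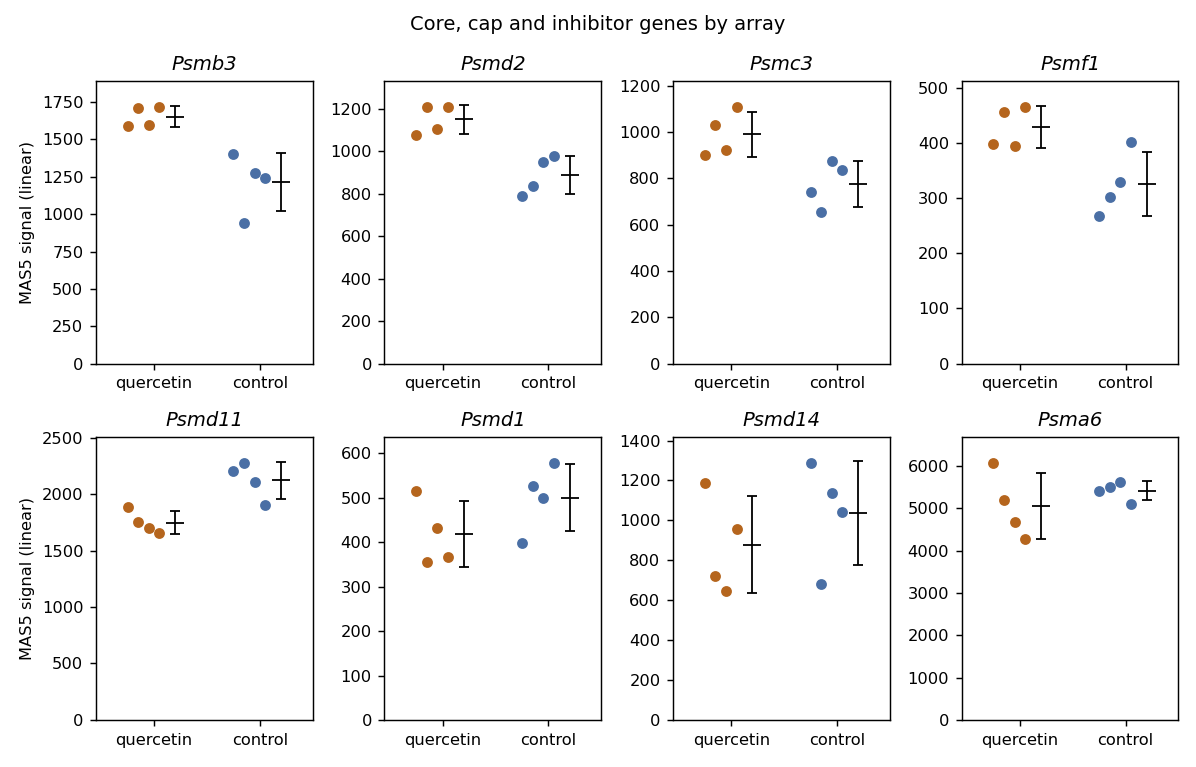
MAS5 signal (vertical axis, linear, from 0) of 8 core, cap and inhibitor genes on each quercetin and control array (points), with mean and SD (bars, n = 4 each). The groups do not overlap for Psmb3, Psmd2, Psmc3 and Psmd11, and do for Psmf1, Psmd1, Psmd14 and Psma6.

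The activators of the core bind to its ends in place of the regulatory cap. Psme1 and Psme2 encode the chains of PA28, which interferon induces along with the immunoproteasome. Psme1 had signals of 1828, 1471, 1221 and 1624 on the quercetin arrays, against 1604, 1305, 1448 and 1591 on the control arrays. Psme2 had 2544, 1978, 1579 and 1648 on the quercetin arrays, against 1978, 1788, 1943 and 1723 on the control arrays. For both, the quercetin arrays spread to either side of the control range, and both log2 fold changes were 0.04 (95% intervals -0.28 to 0.35 and -0.30 to 0.37). Psme4, which encodes the nuclear activator PA200, had 0.06, with 0.34 and 0.25 on its dimmer probe sets. The median of the 3 activator genes was 0.04 with all arrays, and ran from -0.05 (without quercetin array 1) to 0.13 (without quercetin array 3) with 1 array left out.

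Psmf1 encodes PI31, named as an inhibitor of the core in the test tube. It had signals of 398, 456, 394 and 465 on the quercetin arrays, against 267, 301, 330 and 402 on the control arrays. Only control array 4 reached the quercetin range, and the log2 fold change was 0.39 (SE 0.156, limma adjusted p = 0.393), or 0.22 without control arrays 1 and 2.

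Assembly chaperones help to build the core and the cap and leave the finished particle. Of the 7 measured, 5 had values above 0 and 2 below, with a median of 0.06, and none had an unadjusted p under 0.05. That median ran from -0.08 (without quercetin array 1) to 0.12 (without quercetin array 3) with 1 array left out, and was also below 0 without control array 2 and without control array 4. They ran from -0.05 for Psmd10, a chaperone of the cap's base, to 0.31 for Psmg4, a chaperone of the core's alpha ring. Dim second probe sets of Psmd9 and Psme1 had 1.12 (SE 0.451) and 0.74 (SE 0.414), against -0.04 and 0.04 on the probe sets that stood for these genes. Of the genes kept apart, Psmc3ip had a value of -0.23 and Psme3ip1 one of 0.09.

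The proteasome genes varied from array to array within each diet. Quercetin array 1 had the highest of the 8 signals for 23 of 44 genes (52.3%), against 12.3% of all tested probe sets and 1191 of the 7007 with a mean log2 signal of at least 8. Control array 2 had the lowest signal for 18 of 44 (40.9%), against 19.5% and 1831 of 7007. The median deviation of the 44 genes from their own means was 0.24 on quercetin array 1 and -0.21 on control array 2, and between -0.07 and 0.06 on the other 6 arrays. Within the quercetin group the core alpha median deviation was thus 0.25 on array 1 and -0.16 on array 3, a spread wider than the difference between the diets. The immunoproteasome median deviation followed another order, at 0.35, 0.42, -0.05 and 0.09 on quercetin arrays 1 to 4 and -0.24, -0.04, 0.02 and -0.26 on control arrays 1 to 4.

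**Figure D5:**
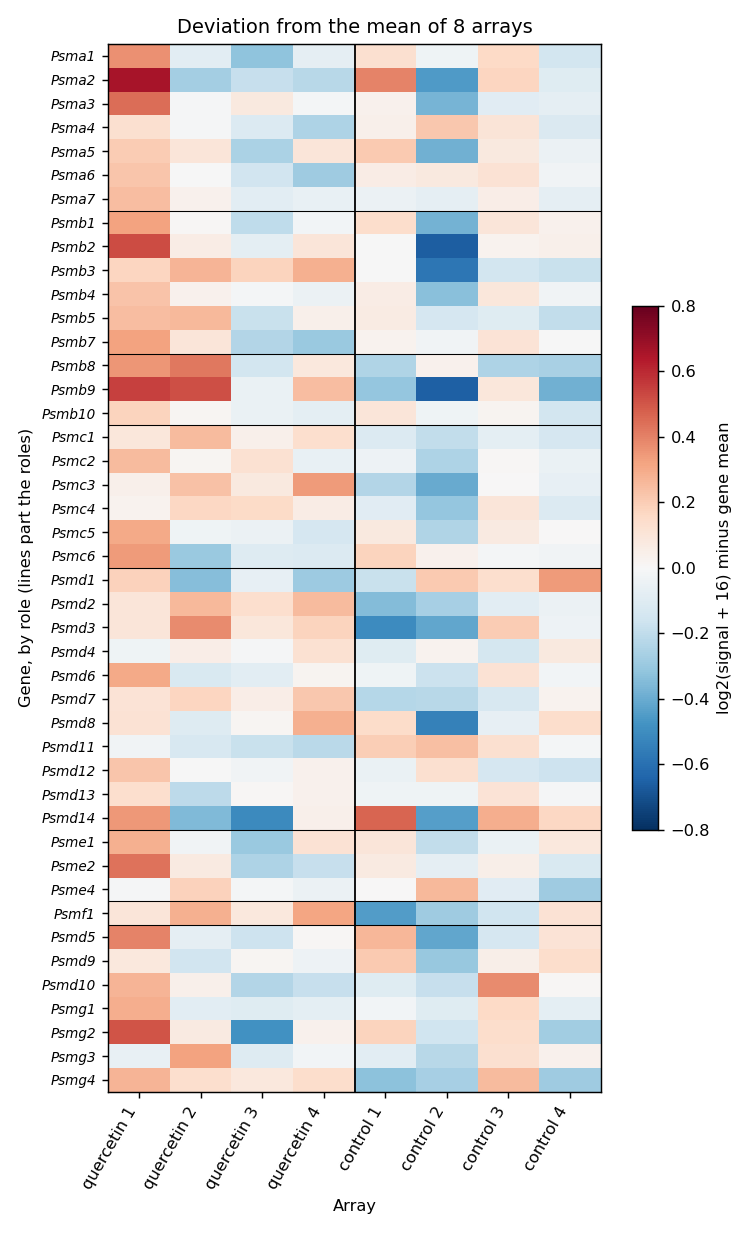
Deviation of log2(signal + 16) from each gene's mean over 8 arrays (colour), for 44 proteasome genes (rows, by role) on 4 quercetin and 4 control arrays (columns). Quercetin array 1 is high and control array 2 low over much of the core, while Psmb9 and Psmb8 are high on quercetin arrays 1 and 2.

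Genes that work with the proteasome were counted as well. Of 18 listed partners and shuttle factors, 16 were measured, 10 had values above 0, the median was 0.03, and none had an unadjusted p under 0.05. Nploc4 and Vcp, of the machine that extracts ubiquitin-tagged proteins from membranes and complexes, had 0.31 and 0.17, Txnl1, a redox protein on the cap, had -0.17, and Ecpas, which links core and cap, had -0.18. Of 15 genes of ubiquitin supply and activation 10 were measured, with a median of 0.05. Of the 10, only Uba1, the main enzyme that activates ubiquitin, had an unadjusted p under 0.05, with a value of 0.31 (limma adjusted p = 0.408). Its signals were 1414, 1730, 1350 and 1442 on the quercetin arrays, against 1245, 1063, 1198 and 1257 on the control arrays, without overlap. Among all tested probe sets 10.8% had such a p and 6.39% had no overlap, or 9.39% and 5.84% at 1 probe set per gene. The ubiquitin-conjugating enzyme genes Ube2b, Ube2n and Ube2d1 had -0.20, 0.19 and 0.30.

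Proteasome genes are raised together by the transcription factor encoded by Nfe2l1 when proteasome activity fails, once the protease encoded by Ddi2 has released it. The 9 regulators listed had a median of 0.01, with 5 values above 0 and 4 below. Ddi2 had 0.52 (SE 0.220, limma adjusted p = 0.421), with signals of 180, 272, 330 and 335 on the quercetin arrays, against 142, 168, 194 and 245 on the control arrays, which overlapped. Mafg, a small partner of such factors, had -0.54 (SE 0.232, limma adjusted p = 0.434). Foxo4 had 0.38 and Nfe2l1 itself 0.19, and 0 of the 9 passed limma's adjusted threshold.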

How the data were processed

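Total RNA from scrapings of the rat distal colon mucosa was labelled by a one-cycle Affymetrix protocol, per the labels' protocols. The deposited values are linear intensity values, 1 signal per probe set and array, and the submitters' processing notes name MAS5 as the authors' software. The trimmed mean signal (2% off either end) was 200.1 on each array. A genome build for the arrays is not given in the sources used here. Such scaling assumes that most transcripts did not change.

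Signals were transformed to log2(signal + 16), and 57 array controls were left out of 31099 probe sets. The upper 60% by mean over 8 arrays (18625 probe sets, mean log2 value of at least 5.50) were tested with limma 3.58.1 in R 4.3.3 (lmFit, then eBayes with trend, two-sided tests). Benjamini-Hochberg adjustment ran over all of them, and 0.05 was the threshold. Adjusted p-values of genes are from this limma fit. Symbols came from the platform annotation, and the Entrez identifiers of all 46 matching genes were found in RefSeq (GRCr8) under the same symbol. The probe set with the highest mean log2 value stood for a gene.

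Members, lists and tests were chosen with earlier results of these data known. Values by array are given for the immunoproteasome, its constitutive partners, Psme1 and Psme2, and the 5 genes with the smallest p in each direction. In other lists up to 4 genes with the smallest p are named. Psmb9 could not be paired with Psmb6, which had no probe set of its own, so 2 ratios were tested and not 3. The steps were tested on simulated data. Precision is limited by the number of arrays.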

Additional observations from a re-analysis of the deposited data

Results flagged for a closer look

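Among 54 groups of 4 arrays examined (named genes, medians by role and 2 ratios, in each diet), 1 held an array that stood away from its group, and about 2.7 such groups arise by chance. Psmb8 on control array 2 stood at 8.75 on the log2(signal + 16) scale, against 8.46 to 8.48 on the other control arrays, a gap that was 0.920 of the range of the control group. Without control array 2 the log2 fold change of Psmb8 was 0.43.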

How the results depend on the processing

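Over 20 alternative fits (each array left out, control arrays 1 and 2 left out, other pseudocounts (1 and 64), other scaling by quantiles or medians, other filters (none or the upper 40%), array weights, a replicate block, no trend, the GAPDH ratio as a covariate, and probe sets averaged per gene), 0 of the 44 proteasome genes passed the adjusted limma threshold. Psmb3 and Psmb9 had an unadjusted p under 0.05 in all 20, and Psmd2 in 19, the exception being the fit without control arrays 1 and 2. The count of genes with an unadjusted p under 0.05, 8 with all arrays, was 4 without the trend, 3 without control arrays 1 and 2, and 3 to 7 with 1 array left out. It was 9 with no filter and 10 with the GAPDH ratio as a covariate (22.7%, against 13.9% of all tested probe sets). With that covariate Psmb9 had 0.59 and Psmb8 0.38. In the other fits the count was 6 to 8. The count of probe sets past the adjusted threshold, 2, was 1 with quantile normalisation, with median centring, with no filter, with the replicate block and without the trend, 0 with probe sets averaged per gene and 0 without control arrays 1 and 2, and 1 to 2 with 1 array left out. With array weights Psme1 turned to -0.011 and Psme2 to -0.0063. With 1 array left out, values ran from -0.022 to 0.069 for Psmb10, -0.17 to 0.036 for Psmb7, -0.052 to 0.14 for Psme1 and -0.10 to 0.13 for Psme2. The cause was not tested. No sign was seen that sample numbers pair the arrays, though so few arrays cannot exclude it. Same-numbered arrays had correlations of deviations of -0.15 to 0.16, and 1 of 4 correlated best with its own number. With the replicate block the count of 8 was 7.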
